A study of Mus musculus with 52 samples.

Results

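The genes described here were 53 genes of DNA replication and targets of E2F, the transcription factors that switch on S phase. They are a list of gene symbols grouped by known function, whose rule uses no measured value but which was drawn up with earlier results of these data known. All 53 were found among the 24421 symbols counted in every library and passed the filter on low counts. RNA was sequenced from Cilia-APEX-IMCD3 cells, a mouse inner medullary collecting duct line that carries a cilium-targeted APEX enzyme, in 52 libraries. A clone in a state is counted as 1 clone here, which gives 13, each grown from a sorted single cell and sequenced as 4 technical replicate libraries. Mutant clones carried missense alleles of Wdr34 or Wdr60, the intermediate chains of the dynein-2 motor that moves cargo back along the cilium, made with the cytosine base editor BE4-Gam. Control clones received the editor without a targeting oligonucleotide. The ciliated groups were 4 control clones (D8, H12, A4 and G7) and 3 mutant clones (Wdr34-1, Wdr34-3 and Wdr60), where the labels give no allele for the Wdr34 clones numbered 1 and 3. Per the study's text the ciliated Wdr34 mutants were a p.Arg183Trp and a p.Gly394Ser clone, and the latter also carried an unintended heterozygous missense change in the neighbouring residue. The non-ciliated groups were 4 control clones (AB, Co1, Co2 and Co3) and 2 mutant clones (Wdr34, whose change was p.Arg183Trp, and Wdr60, p.Ala911Val). Per the study's methods ciliated cells were kept in starvation medium, whereas the labels give 10% fetal bovine serum for all 52 libraries, and the non-ciliated libraries were sequenced earlier. Ciliation, serum and sequencing time therefore coincided and cannot be told apart. Each clone is 1 line, and the Wdr60 clone carried a further heterozygous synonymous change. The study's methods name 4 control and 3 mutant clones in all, so states may share lines, but apart from the name Wdr60 no label pairs a ciliated with a non-ciliated clone. The fits therefore treat the 13 as independent and use no pairing by line.

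Replication starts when the origin recognition complex, Cdc6 and Cdt1 load the Mcm2-7 helicase onto origins in G1, a step called licensing. The helicase is switched on by Cdc45, the GINS complex and Mcm10, after which polymerases alpha, delta and epsilon copy DNA, held by the Pcna clamp and fed by enzymes that make deoxynucleotides. In quiescent cells E2F sites of these genes are held by repressive complexes of the Rb family, and serum withdrawal, the usual way to induce cilia in IMCD3 cells, is known to draw cells out of the cycle. Cilia and cell division are linked because the basal body of the cilium is a centriole that the spindle also uses.

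Library totals ranged from 14816218 to 28084979 counts, and the libraries of each clone were summed so that the clone was the replicate. Values are CPM (counts-per-million) on library sizes scaled by TMM. The median coefficient of variation of a member over the 4 libraries of a clone was 5.17%, with the highest medians in AB (12.2%) and the ciliated Wdr60 clone (11.3%). Collecting duct epithelium markers summed to 1065 to 4676 CPM per clone, with 9 of 14 at or above 1 CPM in every clone, although the water channel Aqp2 had at most 1 count in any clone. Control clones Co2 and G7 stood apart, with the epithelial adhesion gene Epcam at 2.89 and 13.5 CPM against 184 to 836 CPM in the other 11 clones, Cdh1 (E-cadherin) at 4.26 and 13.75 CPM against 244 to 649 CPM, and the keratin Krt7 at 3.78 and 3.8 CPM against 62.6 to 918 CPM. The kidney markers Cdh16, Pax2 and Pax8 stood at or above 266 CPM in both. Results are therefore also given without Co2 and G7, a step chosen after the data were seen. The ciliated mutant clone Wdr34-3 was low in keratins too, with Krt8, Krt18 and Krt7 at 76.5, 147.9 and 62.6 CPM. The other ciliated clones except G7 had at least 372, 529 and 267 CPM. Its Epcam (287 CPM) and Cdh1 (301 CPM) were not as low as in Co2 and G7. Wdr34-3 was left out only in the fits that left out each clone in turn. Fibroblast markers summed to at most 31.3 CPM, reached in a ciliated mutant clone with Dcn at 29.2 CPM. Immune markers summed to at most 5.35 CPM and endothelial markers to at most 0.189 CPM. Wdr34 itself stood at 21.7 CPM in clone Wdr34-3 against 32.5 to 43.8 CPM in ciliated controls, and at 46.4 and 49.7 CPM in clones Wdr34-1 and Wdr60. Missense editing need not alter the level of the edited transcript, so this does not check the labels.

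Replication genes did not fall as a group in ciliated cells. In control clones, ciliated against non-ciliated, 6 of the 53 genes rose (E2f1, Cdt1, Chaf1b, Lig1, Rpa2 and Mcm6) and 3 fell (Rrm1, Rrm2 and Tk1), while 44 passed no threshold (edgeR quasi-likelihood test on 4 against 4 clone sums, Benjamini-Hochberg adjusted p under 0.05, 2-sided). Of all 13994 genes tested, 8.98% rose and 9.46% fell, so the share of replication genes called was near the background. Without Co2 and G7 there were again 6 that rose and 3 that fell (9.76% and 11% of 13898 genes), the same 6 that rose, with Pole2 (-0.51, adjusted p = 0.0186) called in place of Rrm2 (-0.57, 0.0601). The median log2 fold change was 0.03 over the 53 genes and 0.02 over all genes, and the largest change among them was 0.90 in size. By role, the genes that rose lay in licensing, in Okazaki fragment joining and single-strand binding, in the E2F family and in chromatin assembly, and the 3 that fell all supply deoxynucleotides. In bulk RNA a lower level from fewer cells in S phase and one from less RNA per cell cannot be told apart. Since no label says that clones were cultured independently more than once, the p-values measure the spread between these clones.

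**Figure D1:**
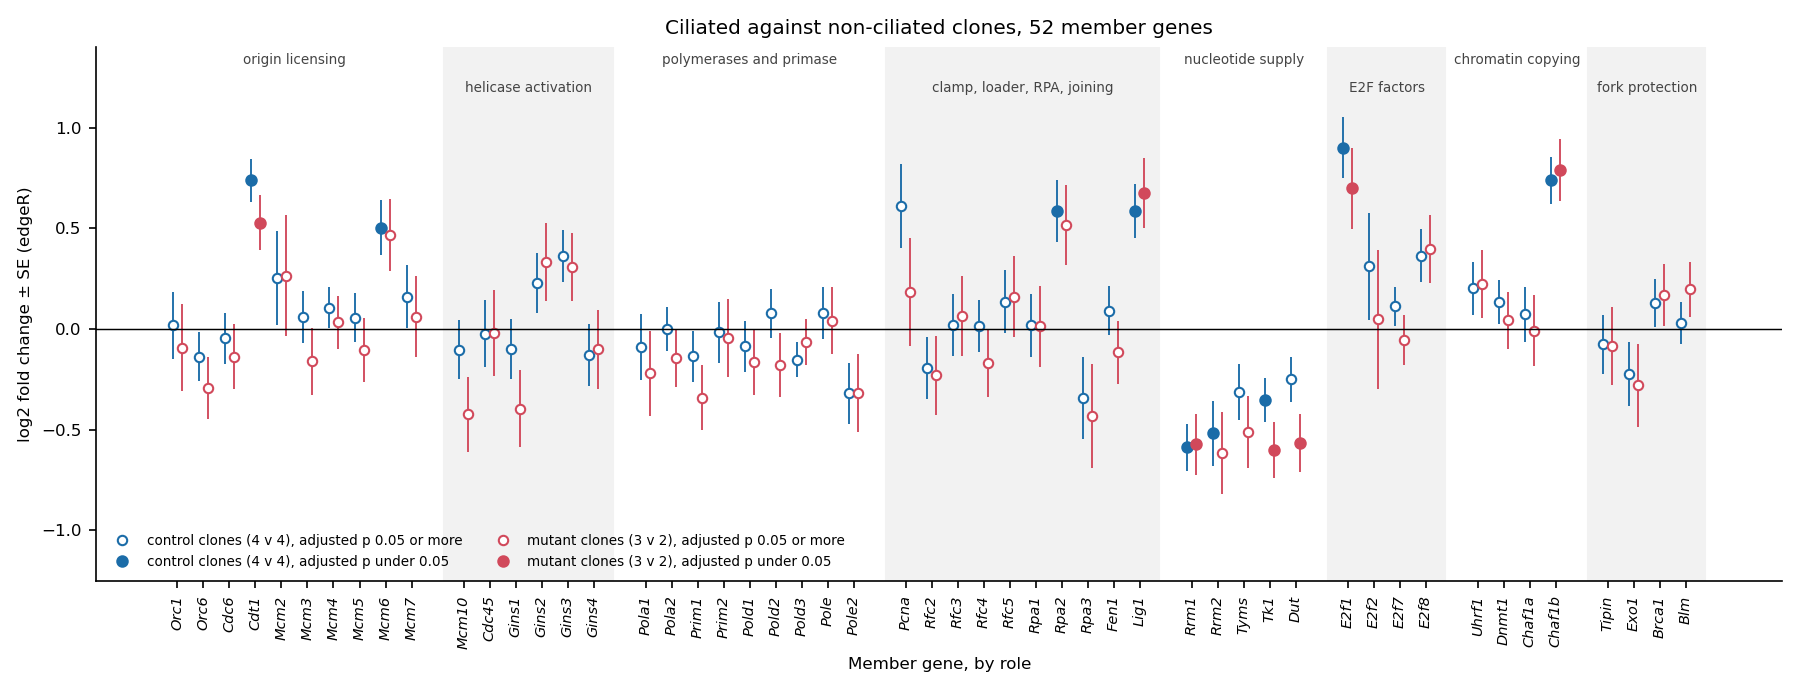
Log2 fold change (points) with its SE (bars) of ciliated against non-ciliated clones for 52 of the 53 genes, ordered by role along the horizontal axis, in control clones (blue, 4 against 4) and mutant clones (red, 3 against 2). Filled points have an adjusted p under 0.05: E2f1 at 0.90, Cdt1 at 0.74 and Chaf1b at 0.74 stand highest in the control clones, and the 5 nucleotide supply genes all lie below 0 in both.

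In the values below, control clones are in the order AB, Co1, Co2, Co3 (non-ciliated) and D8, H12, A4, G7 (ciliated), and mutant clones in the order Wdr34, Wdr60 (non-ciliated) and Wdr34-1, Wdr34-3, Wdr60 (ciliated). E2f1, an activator of S phase genes (chr2:154559400-154569892 in GRCm38.p6), was at 36.8, 35.8, 58.8 and 39.2 CPM in non-ciliated and 84.1, 80.5, 69.5 and 84.6 CPM in ciliated control clones. Every ciliated clone lay above every non-ciliated one, and Co2 was the highest of the non-ciliated clones. The change was a log2 fold change 0.90 ± 0.15 (SE), adjusted p = 0.00417, with an exact permutation p over clones of 0.0286, the smallest that 4 against 4 clones allow. In mutant clones E2f1 rose from 45.8 and 43.7 CPM to 72.7, 73.8 and 71.4 CPM (log2 fold change 0.70 ± 0.20 (SE), adjusted p = 0.0422). E2f2, another activator, had a log2 fold change of 0.31 ± 0.27 and the repressor E2f8 one of 0.36 ± 0.13, at adjusted p of 0.443 and 0.0728. The repressor E2f7 moved least in the family, with 96.4, 117, 92 and 100.4 CPM in non-ciliated and 117, 105, 112 and 104 CPM in ciliated control clones, which overlap (adjusted p = 0.44).

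Among the 10 licensing genes 2 rose in control clones and 0 fell. Cdt1, which loads the helicase onto origins (chr8:122568015-122573130), was at 151, 142, 150.3 and 139.6 CPM in non-ciliated and 272, 225, 249 and 227 CPM in ciliated control clones. The non-ciliated clones were tightly grouped (145.8 ± 5.74 CPM, SD, n = 4) and the ciliated ones more spread (243.3 ± 21.9 CPM, SD, n = 4), with no overlap (log2 fold change 0.74 ± 0.11 (SE), adjusted p = 0.0023). In mutants the values were 152 and 135 CPM against 235, 185 and 199 CPM (log2 fold change 0.53 ± 0.14 (SE), adjusted p = 0.0299). Mcm6, a subunit of the helicase ring (chr1:128331575-128359705), was at 386, 421, 294 and 387 CPM in non-ciliated and 544, 540.5, 593 and 433 CPM in ciliated control clones. Co2 and G7 were the lowest clones of their groups, but G7 still exceeded every non-ciliated control clone (log2 fold change 0.50 ± 0.14 (SE), adjusted p = 0.0263). In mutant clones it was 398 and 425 CPM against 617, 523 and 565 CPM and did not pass (adjusted p = 0.0985). The other ring subunits, which work with Mcm6 in 1 complex, had log2 fold changes of 0.26 (Mcm2), 0.06 (Mcm3), 0.10 (Mcm4), 0.06 (Mcm5) and 0.16 (Mcm7), none past the test. Orc1, the largest origin recognition subunit, changed least, at 19, 26.4, 25 and 22.8 CPM against 23.6, 23.2, 25.3 and 22.2 CPM, and Cdc6 and Orc6 gave -0.05 and -0.14. The call on Mcm6 was lost without Co3, H12 or A4 (adjusted p 0.057 to 0.0712).

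Of the 6 genes of helicase activation and the 9 of polymerases and primase, none was called in control or mutant clones by edgeR. Gins3, a GINS subunit, was the nearest, at 20.9, 19.9, 24.7 and 18.8 CPM in non-ciliated and 23.2, 27.6, 27.5 and 30.3 CPM in ciliated control clones. Its clones overlapped through Co2 and D8 (log2 fold change 0.36 ± 0.13 (SE), adjusted p = 0.0693). It passed without Co2 (adjusted p = 0.0322) or without D8 (0.0449), but not without both Co2 and G7 (0.0695) or without any other single clone. Cdc45, which joins GINS on the active helicase, was at 83, 88, 108 and 75.2 CPM against 86.9, 72.7, 71.7 and 117 CPM, with Co2 and G7 well above the other clones of their groups. Pole2, a subunit of the leading strand polymerase epsilon, stood at 40.5, 43.9, 40.5 and 39.2 CPM in non-ciliated and 29.3, 31, 27.1 and 44.1 CPM in ciliated control clones, where D8, H12 and A4 lay below all non-ciliated clones and G7 above them all (log2 fold change -0.32, adjusted p = 0.161). Without G7 it passed, at -0.51 and an adjusted p of 0.0172. Pola2, the accessory subunit of polymerase alpha, had a log2 fold change of 0.00 ± 0.11 from 152, 156, 162 and 172 CPM and 144, 159.9, 143 and 194 CPM. Across both roles the log2 fold changes in control clones ran from -0.32 (Pole2) to 0.36 (Gins3).

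Of the 10 genes of the clamp, its loader, the single-strand binding protein RPA and Okazaki fragment joining, 2 rose in control clones. Lig1, the ligase that seals Okazaki fragments (chr7:13277175-13311426), was at 159, 146, 223 and 149 CPM in non-ciliated and 248, 269, 243 and 257 CPM in ciliated control clones. All ciliated values exceeded all non-ciliated ones, among which Co2 stood apart on the high side (log2 fold change 0.59 ± 0.13 (SE), adjusted p = 0.0127). In mutant clones Lig1 went from 147 and 161 CPM to 241, 244 and 254 CPM (log2 fold change 0.68 ± 0.17 (SE), adjusted p = 0.0285). Rpa2, the middle subunit of RPA, was at 49.3, 52.7, 66 and 47.9 CPM against 70.3, 90.4, 66.2 and 97 CPM in control clones, where A4 lay just above Co2 (log2 fold change 0.59 ± 0.15 (SE), adjusted p = 0.0224). That call was lost without AB, Co1, Co3, H12 or G7 (adjusted p 0.0552 to 0.0684), and the mutant clones, at 61.7 and 60.8 CPM against 80.4, 99.2 and 82.8 CPM, gave an adjusted p of 0.103. Of the other RPA subunits, Rpa1 had a log2 fold change of 0.02 ± 0.16 and Rpa3 of -0.34 ± 0.20, neither past the test. Without Co2 and G7 Rpa3 was at -0.55 (edgeR, adjusted p = 0.0776). Their difference from Rpa2 was not tested.

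Pcna, the sliding clamp (chr2:132249286-132253180), had the largest log2 fold change of its role, from 179, 193, 249 and 199.6 CPM to 354, 259, 334 and 306 CPM in control clones, with no overlap of clones. It missed the threshold (log2 fold change 0.61 ± 0.21 (SE), adjusted p = 0.0612), and passed without Co2 (adjusted p = 0.042) but not without both Co2 and G7 (0.0581) or without any other single clone. In mutant clones it was at 154 and 276 CPM against 188, 229.6 and 315 CPM, where the Wdr60 clone of each state was the higher and the groups overlapped (adjusted p = 0.673). The clamp loader genes Rfc2 to Rfc5 lay between -0.20 (Rfc2) and 0.14 (Rfc5) in control clones. Rfc4 was least changed of the role, at 73.3, 62.5, 67.7 and 50.8 CPM against 66.1, 66.7, 57.1 and 67.2 CPM, and Fen1, the flap nuclease, gave 0.09.

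All 5 nucleotide supply genes had negative log2 fold changes in control and in mutant clones, 3 of them past the test in each. Rrm1, the large subunit of ribonucleotide reductase (chr7:102441695-102469771), was at 404, 489, 384 and 407 CPM in non-ciliated and 266, 280.2, 269 and 306 CPM in ciliated control clones. Every ciliated clone was below every non-ciliated one (log2 fold change -0.59 ± 0.12 (SE), adjusted p = 0.00789). The mutant clones went from 481 and 366 CPM to 264, 299 and 291 CPM (log2 fold change -0.57 ± 0.15 (SE), adjusted p = 0.0311). Leaving out mutant clones or library numbers gave -0.76 to -0.36 for Rrm1 there, and its call was not kept in all of these fits. Rrm2, the small subunit of the same enzyme, was at 416, 641, 539 and 451 CPM and 373, 308, 347 and 401 CPM in control clones, where G7 came close to AB (log2 fold change -0.52 ± 0.16 (SE), adjusted p = 0.0438). That call was lost without Co1, Co2, Co3, D8, H12 or A4 (adjusted p 0.0597 to 0.134), and mutant clones, at 626 and 432 CPM against 339.8, 356 and 339 CPM, missed the threshold at an adjusted p of 0.0668. Tk1, the thymidine salvage kinase, was at 77.7, 77.3, 72.2 and 66.5 CPM and 52.9, 55.7, 59.3 and 62.1 CPM in control clones (log2 fold change -0.35 ± 0.11 (SE), adjusted p = 0.0461). It fell in mutant clones too, from 96.6 and 73.8 CPM to 52.1, 58.3 and 58.2 CPM (log2 fold change -0.60 ± 0.14 (SE), adjusted p = 0.0211). With mutant clones or library numbers left out this ran from -0.79 to -0.39, and the mutant call was not kept in all of these fits. The control call on Tk1 was lost without any single clone except G7 (adjusted p 0.0574 to 0.123).

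Tyms, which makes thymidylate, was at 144, 141, 124 and 105 CPM and 107, 114, 96.1 and 95.9 CPM in control clones, overlapping through Co3 (adjusted p = 0.139). In mutant clones it was at 158 and 177 CPM and 97.6, 114 and 142 CPM (adjusted p = 0.0783). Dut, which clears dUTP, was at 152, 162, 153 and 126 CPM and 130.3, 117, 113 and 139 CPM in control clones (adjusted p = 0.141). It passed in mutant clones, at 187 and 154 CPM against 110.0, 116 and 119 CPM (log2 fold change -0.57 ± 0.14 (SE), adjusted p = 0.0272). That call was lost without any single ciliated mutant clone, and leaving out a non-ciliated one left a single clone in that group. Leaving out mutant clones or library numbers gave log2 fold changes of -0.70 to -0.42.

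**Figure D2:**
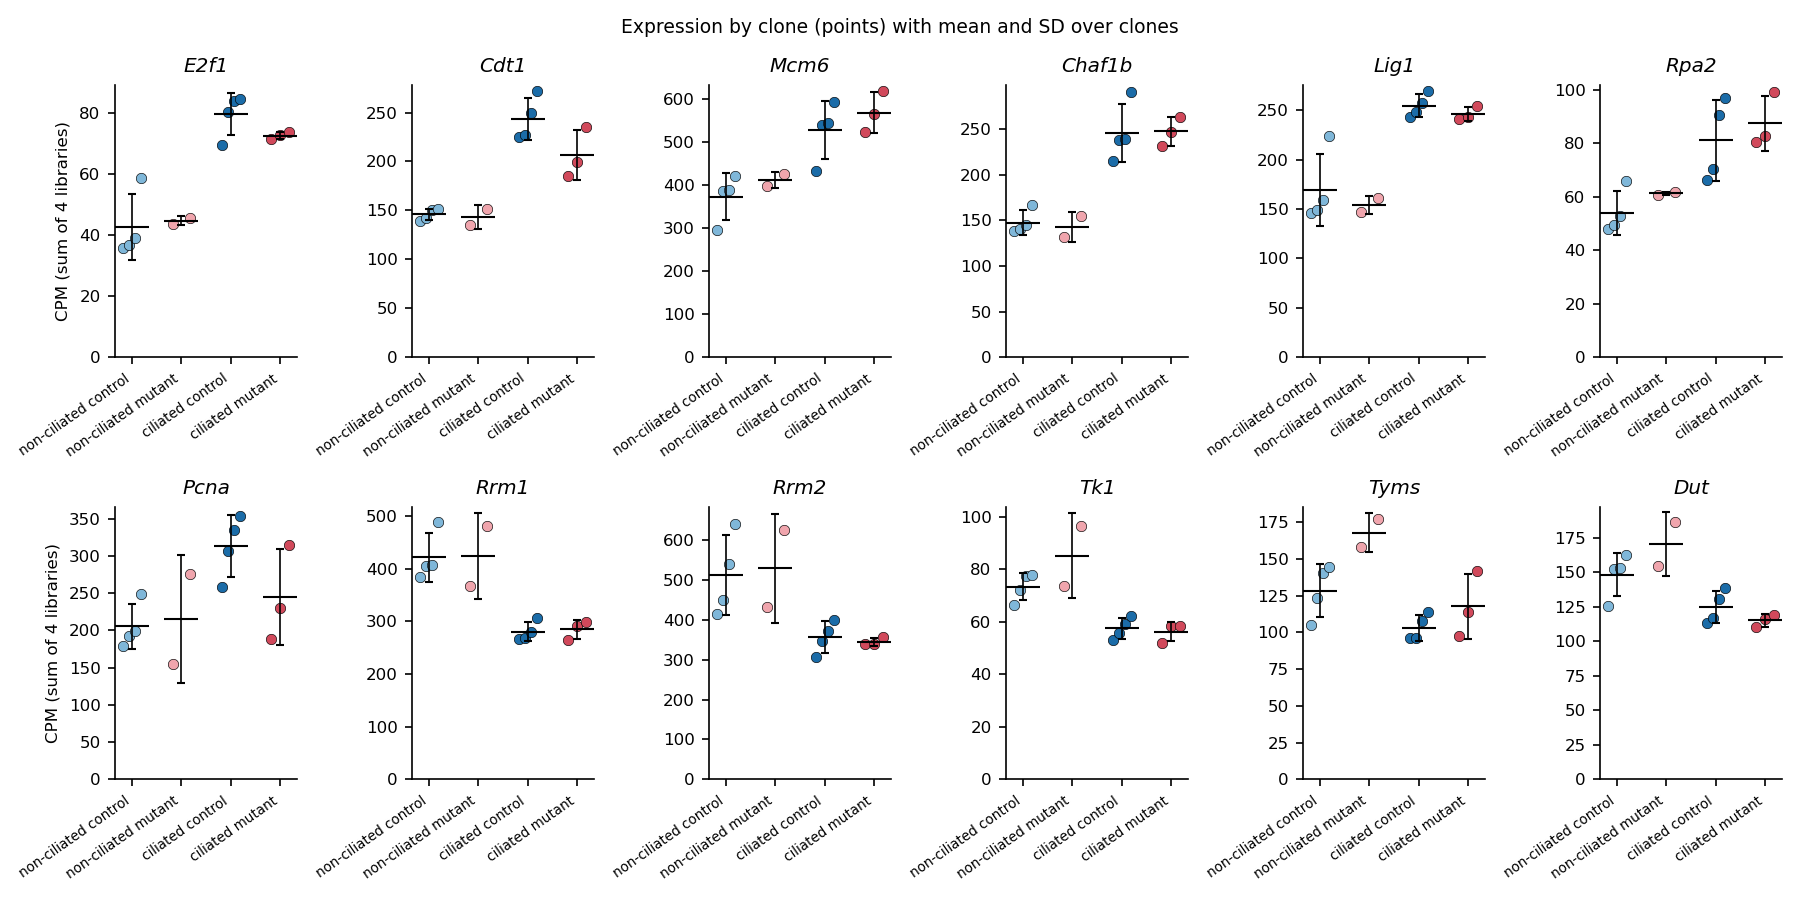
CPM of 12 genes (vertical axes, from 0) in each clone (points) with the mean and SD over clones (bar and whiskers), by group along the horizontal axis. For E2f1, Cdt1, Mcm6, Chaf1b, Lig1 and Rpa2 all 7 ciliated clones lie above all 6 non-ciliated ones, and for Rrm1, Rrm2 and Tk1 all lie below, which makes 9 of the 53 genes beside 15% of all genes.

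Chaf1b, a subunit of the chromatin assembly factor CAF-1 that lays histones on new DNA (chr16:93883900-93906115), was at 140.1, 145, 167 and 138 CPM in non-ciliated and 215, 238, 239.9 and 291 CPM in ciliated control clones. No clones overlapped (log2 fold change 0.74 ± 0.12 (SE), adjusted p = 0.00292), and mutant clones rose from 131 and 155 CPM to 232, 247 and 264 CPM (log2 fold change 0.79 ± 0.15 (SE), adjusted p = 0.0115). Its partner Chaf1a was at 198, 191, 260.1 and 178 CPM and 198, 208, 210.1 and 254 CPM, which overlap (adjusted p = 0.74). Uhrf1, which brings the maintenance methyltransferase Dnmt1 to newly copied DNA, and Dnmt1 gave 0.20 and 0.14, neither past the test. Among the 5 genes of fork protection and repair none was called. The Blm helicase, at 66, 65.6, 61 and 65.4 CPM and 71.7, 60.3, 61.8 and 69.7 CPM, was the least changed of the role.

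The clone values of 10 of the 53 genes did not overlap between ciliated and non-ciliated control clones (7 above, 3 below), beside 21.5% of all genes. In mutant clones 26 genes did not overlap, beside 52.2% of all genes, a share that small groups of 3 and 2 make high. In mutant clones 4 of the 53 genes rose (Chaf1b, E2f1, Lig1 and Cdt1), beside 5.32% of all genes, and 3 fell (Tk1, Rrm1 and Dut), beside 7.53%. Without Co2 and G7, which enter this comparison through the shared estimate of the spread, Mcm6 (adjusted p = 0.0283) and Rpa2 (0.0453) were also called, which gave 6 that rose beside 9.53% of all genes and 3 that fell beside 11.3%. All 9 genes called in control clones had the same sign in the mutant clones, which are other clones, and 6 were called in both (Cdt1, Chaf1b, E2f1, Lig1, Rrm1 and Tk1). Over all genes the same held for 2574 of 2580 and 1479 of 2580. None of the genes called in mutant clones kept its call in every fit that left out a mutant clone or library number. Leaving out a non-ciliated mutant clone left a single clone in that group, so calls lost there decide nothing.

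Genes of neighbouring pathways, taken from lists of known function, were counted in control clones in the same way, beside the 8.98% of all genes that rose and 9.46% that fell, and most passed no test. Of 31 further replication genes 3 rose (Mcm9, Ung and Timeless, at log2 fold changes of 0.76, 0.58 and 0.52) and 4 fell (Orc2, Orc4, Orc5 and Rfc1, at -0.75, -0.72, -0.56 and -0.38), with a median of 0.0044. Orc2, Orc4 and Orc5 are partners of Orc1 in the origin recognition complex. Of 18 mitosis genes 7 fell, among them the spindle checkpoint kinase Bub1 (-0.94), Aurka (-0.79), Kif20a (-0.78) and Plk1 (-0.66), 0 rose, and the median was -0.39. Of 15 Rb and E2F control genes, a list that includes the factors E2f3, E2f4, E2f5 and E2f6 themselves, 2 rose (Tfdp2, 0.997, and Lin37, 0.676). E2f4, which binds silent promoters, fell (-0.51). Of 13 tested G1 cyclins and CDK inhibitors 4 rose, the inhibitors Cdkn1b (1.12), Cdkn2a (0.96) and Cdkn2b (0.77) and the kinase Cdk2 (0.61), and Ccnd3, a G1 cyclin, fell (-0.56). These lists were not tested against other genes or each other.

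**Figure D3:**
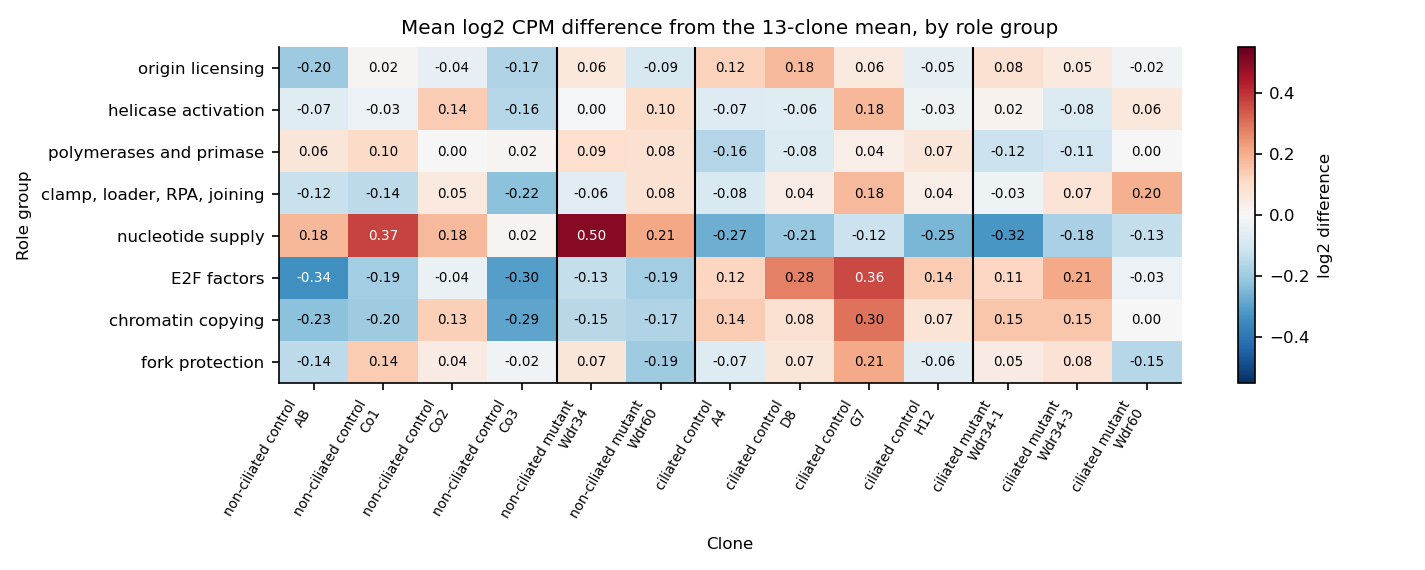
Mean difference in log2 CPM of each clone from the mean of all 13 clones (colour and number, log2 scale), by role group (rows) and clone (columns, with lines between the 4 groups). The nucleotide supply row is above 0 in all 6 non-ciliated clones and below 0 in all 7 ciliated ones, from 0.50 in non-ciliated Wdr34 to -0.32 in Wdr34-1.

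Promoters are shown for genes that rose, passed no test or fell, to set their sequence beside the counts. Of the 53 genes 44 had a RefSeq promoter (250 bases before to 50 after the start, GRCm38.p6). The exact E2F forms TTTGGCGC, TTTCCCGC, TTTCGCGC and TTTGCCGC were searched on both strands, and some matches overlap. A form was found in any promoter of 18 of 44 genes (40.9%), beside 704 of 27025 genes with a promoter of that length (2.6%). CCAAT was found in 65.9% of the 44 genes and 41.1% of all, and the CHR word TTTGAA in 18.2% and 20.2%. Of the 18 mitosis genes 14 had a promoter, with TTTGAA in 71.4% and an E2F form in 7.14%. An E2F form stood in 3 of the 6 genes that rose (Cdt1, Mcm6 and Lig1), in 0 of the 3 that fell and in 15 of 35 that passed no test. A match is a description of the sequence and not a measured site, and a promoter without these letters can still bind E2F. The sequences run 5′ to 3′ on the gene's own strand with E2F forms in capitals, for Cdt1 (chr8:122567765-122568064, plus strand) and Mcm6 (chr1:128359656-128359955, minus strand), which rose, Mcm5 (chr8:75109259-75109558, plus strand), which passed no test, and Rrm1 (chr7:102441445-102441744, plus strand) and Tk1 (chr11:117825965-117826264, minus strand), which fell.
Cdt1: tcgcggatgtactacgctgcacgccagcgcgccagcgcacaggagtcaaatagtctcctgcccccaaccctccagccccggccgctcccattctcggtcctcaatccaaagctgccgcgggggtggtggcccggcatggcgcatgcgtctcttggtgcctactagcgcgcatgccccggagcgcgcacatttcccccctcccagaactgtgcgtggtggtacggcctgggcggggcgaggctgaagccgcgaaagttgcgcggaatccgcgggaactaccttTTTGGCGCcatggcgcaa
Mcm6: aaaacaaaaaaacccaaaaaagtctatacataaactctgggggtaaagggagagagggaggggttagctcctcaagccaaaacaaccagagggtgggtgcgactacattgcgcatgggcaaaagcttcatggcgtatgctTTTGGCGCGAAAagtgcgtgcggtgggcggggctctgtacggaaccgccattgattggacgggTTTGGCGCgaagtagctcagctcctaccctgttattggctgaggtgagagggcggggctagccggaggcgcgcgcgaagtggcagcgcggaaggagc
Mcm5: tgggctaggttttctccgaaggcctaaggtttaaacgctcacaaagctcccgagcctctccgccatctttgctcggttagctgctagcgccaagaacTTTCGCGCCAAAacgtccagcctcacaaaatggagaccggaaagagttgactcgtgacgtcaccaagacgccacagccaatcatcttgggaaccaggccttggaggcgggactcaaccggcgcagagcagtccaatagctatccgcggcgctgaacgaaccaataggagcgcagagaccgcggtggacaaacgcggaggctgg
Rrm1: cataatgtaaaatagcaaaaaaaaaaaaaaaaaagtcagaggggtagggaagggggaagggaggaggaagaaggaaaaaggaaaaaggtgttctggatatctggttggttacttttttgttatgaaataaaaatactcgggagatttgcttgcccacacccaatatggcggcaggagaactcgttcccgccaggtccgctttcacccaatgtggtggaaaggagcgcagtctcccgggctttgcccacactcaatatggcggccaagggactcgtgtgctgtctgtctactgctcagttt
Tk1: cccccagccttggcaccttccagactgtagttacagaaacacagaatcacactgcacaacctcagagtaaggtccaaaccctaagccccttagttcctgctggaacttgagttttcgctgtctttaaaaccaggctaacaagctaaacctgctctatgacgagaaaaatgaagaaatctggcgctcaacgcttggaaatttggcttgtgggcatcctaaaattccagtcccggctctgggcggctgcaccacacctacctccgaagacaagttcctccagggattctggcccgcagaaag
Mcm6 carries 3 matches and Mcm5 carries 2, while Rrm1 and Tk1 carry 0, and Rrm1 holds 2 copies of CCAAT.

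Missense mutation of Wdr34 or Wdr60 was compared with control clones within each state. No replication gene was called in ciliated cells (3 mutant against 4 control clones) or in non-ciliated cells (2 against 4), and neither was any of the 13994 genes (0 in each, edgeR on clone sums). At an unadjusted p under 0.05 there were 0 of the 53 genes beside 272 of all genes in ciliated cells, and 1 (Tyms) beside 516 in non-ciliated cells. DESeq2 called 0 of the 53 in both states (of all genes 1 higher and 2 lower in ciliated, 8 higher and 16 lower in non-ciliated cells), and voomLmFit, which treated the clone as a random block, also called 0 (6 higher and 3 lower, 1 higher and 6 lower). The median log2 fold change of the 53 genes was -0.05 in ciliated and 0.05 in non-ciliated cells, beside 0.0012 and 0.003 for all genes. The mutant effect differed between states for 0 genes (edgeR interaction, 0 of 13994), at an unadjusted p under 0.05 for 0 of the 53 and 136 of all genes, and by DESeq2 and voomLmFit for 0. The nearest to a difference were Dut (-0.32 ± 0.18, unadjusted p = 0.11), Tk1 (-0.25 ± 0.18) and Mcm10 (-0.32 ± 0.24). Without Co2 and G7 none of the 53 genes was called either (edgeR, unadjusted p under 0.05 for 0 in ciliated and 1 in non-ciliated cells, beside 789 and 588 of all genes). That 1 gene was Mcm5 (edgeR, unadjusted p = 0.0171), whereas Tyms was then at 0.0809. A p above the threshold does not show that clones were alike, and the SE of the mutant differences ran from 0.09 to 0.33 over the 53 genes and both states.

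**Figure D4:**
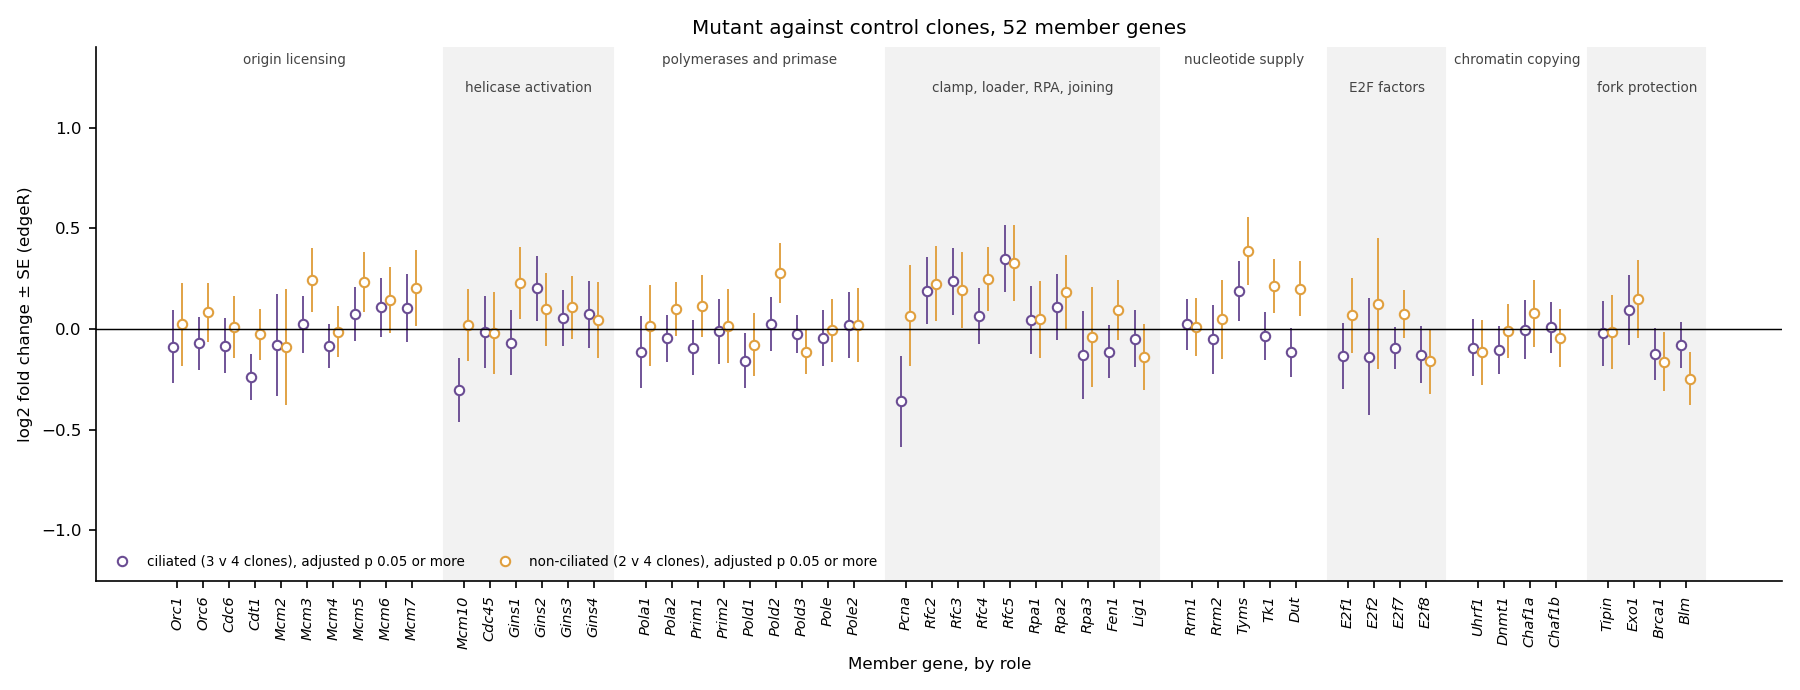
Log2 fold change (points) with SE (bars) of mutant against control clones for 52 of the 53 genes, by role, in ciliated (purple, 3 against 4) and non-ciliated cells (orange, 2 against 4). Open points did not pass an adjusted p of 0.05, and all are open, between -0.36 for Pcna and 0.39 for Tyms.

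In ciliated cells the genes with the smallest p were Rfc5, Cdt1 and Mcm10. Rfc5, of the clamp loader (chr5:117379145-117389023), was at 156, 184 and 218 CPM in mutant and 149, 173, 112 and 148 CPM in control clones (log2 fold change 0.35 ± 0.17, unadjusted p = 0.0594, edgeR). The Wdr60 clone was the highest, and H12 exceeded Wdr34-1. Cdt1 had a log2 fold change of -0.24 ± 0.11, with Wdr34-3 and Wdr60 below all 4 controls and Wdr34-1 among them. Mcm10, a scaffold for helicase activation, was at 93.4, 65.1 and 86.6 CPM in mutant and 128, 89.8, 93.4 and 92.1 CPM in control clones, with Wdr34-3 lowest of all 13 clones (log2 fold change -0.30 ± 0.16). After chromosome medians were subtracted from each clone, as described below, the ciliated differences were 0.20 for Rfc5, -0.19 for Mcm10 and -0.27 for Cdt1 (limma). For 0 of the 53 genes did mutant and control clones not overlap, beside 2.1% of all genes.

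In non-ciliated cells Tyms, Blm and Pold2 had the smallest p. Tyms, at 158 and 177 CPM in mutant and 144, 141, 124 and 105 CPM in control clones, was higher in both mutant clones than in any control (log2 fold change 0.39 ± 0.17, unadjusted p = 0.0416, edgeR). Its difference was 0.20 after subtraction of chromosome medians (limma, unadjusted p = 0.157), and 0.36 without Co2 and G7 (edgeR, unadjusted p = 0.0809). Blm, at 53.7 and 55.1 CPM against 66, 65.6, 61 and 65.4 CPM, was lower in both mutant clones (-0.25 ± 0.13). Pold2, a polymerase delta subunit, was at 138 and 147 CPM against 125, 124, 109.8 and 110.5 CPM (0.28 ± 0.15). After subtraction of chromosome medians Blm was at -0.26 and Pold2 at 0.29 (limma). Clone values did not overlap for 5 of the 53 genes (Pold2, Rfc5 and Tyms above, Pold3 and Blm below), beside 14.1% of all genes. With 2 against 4 clones the exact permutation p cannot fall below 0.0667.

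With libraries as samples, technical replicates count as independent and calls appear (edgeR). In ciliated cells Rfc5 was then higher and Cdt1 and Mcm10 lower, 3 of 53 beside 6.57% of all genes, and in non-ciliated cells Mcm3, Mcm5, Rfc5 and Tyms were higher, 4 of 53 beside 10.5%. For single mutant clones against the 4 controls of their state that fit called 7 of the 53 genes in non-ciliated Wdr34 (11.5% of all genes), 11 in non-ciliated Wdr60 (13.8%), 2 in Wdr34-1 (5.64%), 9 in Wdr34-3 (26.8%) and 13 in ciliated Wdr60 (14.7%). On clone sums 0 of the 53 genes were called in any single mutant clone, and 0% of all genes were called except 0.00715% in Wdr34-3, which is 1 gene, Praf2, named after its value was seen. At an unadjusted p under 0.05 (edgeR) there were 1 of the 53 genes in non-ciliated Wdr34 (2.06% of all genes), 3 in non-ciliated Wdr60 (2.9%), 1 in Wdr34-1 (1.01%), 2 in Wdr34-3 (6.13%) and 4 in ciliated Wdr60 (2.42%). Single control clones set against the other 3 of their state gave 0 called replication genes in each of the 8, and 0.0572% of all genes in H12 (0% in the others). The unadjusted p was under 0.05 for 10 of the 53 genes in Co2 (11% of all genes), 7 in G7 (19.8%), 1 in D8 (5.14%), 1 in H12 (4.17%) and 0 in AB (3.75%), Co1 (1.46%), Co3 (1.17%) and A4 (2.06%). Mutant clones were set against 4 controls and control clones against 3, so these counts are not compared with each other.

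Clones also differed in what the replication genes shared beside their function, namely the chromosome they lie on. Each clone was compared with the median of the control clones of its state, a step chosen after the data were seen. In the Wdr60 clone all 6 replication genes of chromosome 5 (Mcm7, Pole, Rfc2, Rfc3, Rfc5 and Tyms) were higher in both states, by a median log2 difference of 0.49 in ciliated and 0.43 in non-ciliated cells. All tested genes of chromosome 5 had medians of 0.32 and 0.30 in the same clones. On chromosome 6, Mcm2 and Rpa3 were lower in the ciliated Wdr60 clone, by log2 differences of -0.57 and -0.26 beside -0.36 for all genes of that chromosome, and in the non-ciliated one, by -0.57 and -0.34 beside -0.42. In Wdr34-3 the 5 genes of chromosome 2 (Mcm10, Gins1, Pcna, Dut and E2f1) were all lower, at a median of -0.41 beside -0.38 for the chromosome, and the 3 of chromosome 4 (Orc1, Rpa2 and E2f2) all higher, at 0.31 beside 0.38.

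Unedited clones showed such differences as well. Mcm2 and Rpa3 were lower in AB (-0.73 and -0.43, chromosome -0.60) and in H12 (-0.60 and -0.43, chromosome -0.44), where Mcm2 was at 237 CPM in AB and 305 CPM in H12 against 389 to 514 CPM in the other 6 control clones. The 4 genes of chromosome 1 (Mcm3, Mcm6, Prim2 and Exo1) were lower in Co2 (-0.46, chromosome -0.59) and in G7 (-0.30, chromosome -0.51). The genes did not follow their chromosome everywhere, since in H12 2 of the 3 of chromosome 4 were lower (median -0.03, chromosome 0.23) and in D8 1 of the 2 of chromosome 19 (Pola2 and Fen1) was lower (median 0.02, chromosome 0.23). Over the 53 genes the median SD between clones of a group was 0.18 on the log2 scale, and 0.16 after each clone's chromosome median was subtracted, with a smaller SD for 40 of 53 genes beside 62.2% of all placed genes. After subtraction (limma, chosen after the data were seen) the control clones gave 8 higher and 2 lower genes between states, beside 11.6% and 11.8% of 13302 placed genes, with Pcna (0.031) and Gins3 (0.0428) now past an adjusted p of 0.05 and Rrm2 (0.0584) not. In the mutant clones Dut lost its call (adjusted p = 0.172) and Mcm6 gained one (0.00884), which gave 5 higher and 2 lower genes beside 8.67% and 9.37%. Mutants against controls again gave 0 calls in both states (limma, 0 of all placed genes; unadjusted p under 0.05 for 1 of the 53 genes, Cdt1, beside 1.44% in ciliated cells, and for 0 beside 3.75% in non-ciliated cells). DNA copy number was not measured, and its part in these values was not tested.

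**Figure D5:**
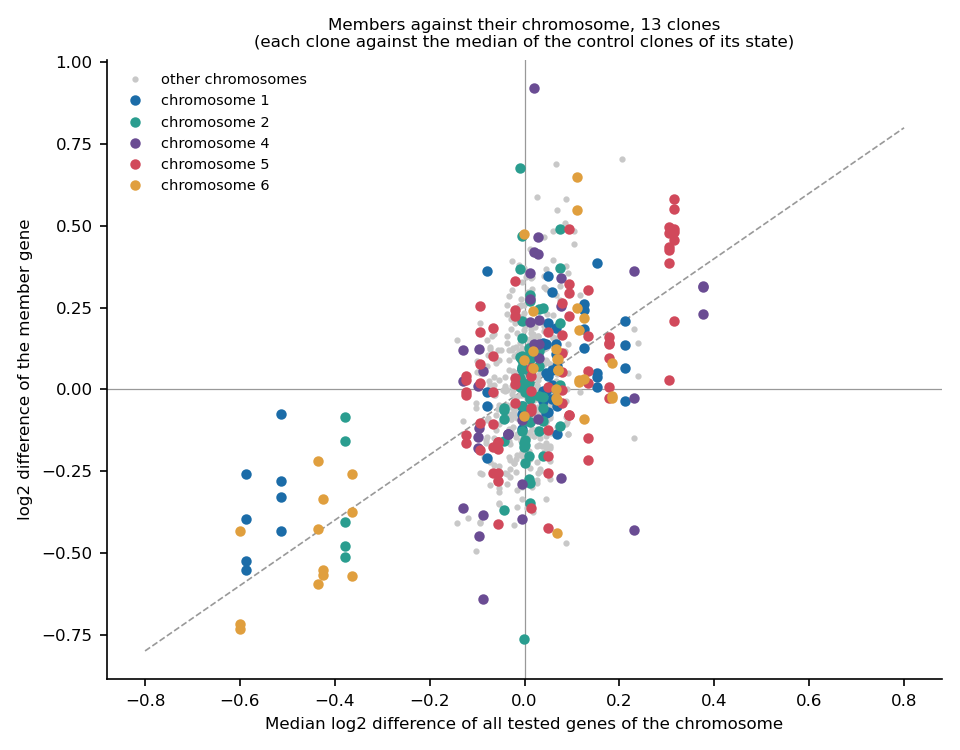
Log2 difference of each of the 53 genes in each of the 13 clones (vertical axis) against the median log2 difference of all tested genes of its chromosome in that clone (horizontal axis), with the line of equal values dashed. Coloured points are genes of chromosomes 1, 2, 4, 5 and 6; those with chromosome medians of -0.36 or lower all lie below 0, and the chromosome 5 genes of the Wdr60 clones, at 0.30 and 0.32, all lie above 0.

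The summed share of raw counts, not scaled by TMM, spent on the 53 genes was at or above 0.861% in every ciliated clone. In non-ciliated clones it was at or below 0.851%, except in Co2 (0.903%). It ran from 0.781% (Co3) to 0.903% (Co2) in non-ciliated controls, 0.836% and 0.851% in non-ciliated mutants, 0.861% (A4) to 0.977% (G7) in ciliated controls and 0.911% to 0.948% in ciliated mutants. Summed over the 53 genes, TMM-scaled CPM overlapped between states. These sums ran from 7981 (Co3) to 9065 (Wdr34) in non-ciliated and from 8649 (H12) to 9468 (G7) in ciliated clones. The mean log2 CPM of the 53 genes was lowest in Co3 (6.75) and highest in G7 (7.01), where 14 of the 53 genes had their highest value of all 13 clones. Co3 held the lowest value for 10 genes and the highest for 0. The spread between clones of a group was small for these genes, with a median SD of 0.18 beside 0.34 for all genes and 0.25 for the 7515 genes within their range of levels.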

How the data were processed

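RNA was measured in 52 libraries of 13 clones. Per the labels and the study's methods the authors used Rsubread for alignment to GRCm38/mm10 and featureCounts for counting by gene symbol, in R 3.4.4 (DESeq2 1.18.1 for their own tests). The deposited values are raw counts, 1 table per library. Strand use and the treatment of reads that map to several places are not given in the sources used here, so overlapping and near-identical genes are uncertain.

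The 4 technical libraries of each clone were summed and clones grouped from the labels by state and genotype. In R 4.3.3 with edgeR 4.0.16, genes were filtered with filterByExpr (13994 kept), scaled by TMM and tested by glmQLFTest over all 13 clones (9 residual degrees of freedom; 6 for single clones, where a lone clone is assumed to vary like the controls), 2-sided, with Benjamini-Hochberg adjustment over all genes. Single genes were also tested by exact permutation over clones. CPM are TMM-scaled, and log2 CPM used a prior count of 2. Alternatives used DESeq2 1.42.0 and limma 3.58.1, other filters and scaling, libraries as samples, and leaving out clones or library numbers. The fit was tested on simulated data. Depth per library was 14816218 to 28084979 counts. The chi-square per degree of freedom between libraries of a clone was 2.02 to 109 (78 pairs), so none were duplicates. Library numbers did not pair libraries across clones (median correlation of deviations -0.001 over 312 pairs). Figures used matplotlib in Python.

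Clone values are printed for the genes with the largest and smallest change between states in each of 8 role groups, for genes called, and, where fewer than 3 were called between genotypes, for the 3 with the smallest p. The values of 1 gene of fork protection and repair are not reported here, though counts over the 53 genes include it. The genes and lists were chosen with earlier results of these data known. Coordinates and promoters are from RefSeq GRCm38.p6, in which all 53 genes matched by symbol.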

Additional observations from a re-analysis of the deposited data

Results flagged for a closer look

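Each of the 53 genes and their mean were checked, within the 4 control clones of each state and over the 4 libraries of each clone for the mean, for a sample far from the others (Dixon's ratio above its 95% critical value for 4 samples, 121 checks). Such a check passes by chance in about 1 of 20 groups, and 8 were found here. In ciliated controls Mcm10 was high in D8 (128 CPM against 89.8 to 93.4, ratio 0.887), Rfc3 low in A4 (91.9 against 108 to 110.3 CPM, 0.866), Rfc4 low in A4 (57.1 against 66.1 to 67.2 CPM, 0.896) and Exo1 low in G7 (51.2 against 66.8 CPM or more, 0.852). In non-ciliated controls Mcm2 was low in AB (237 against 389 to 414 CPM, 0.889), Gins1 low in AB (27.6 against 31.7 to 32.5 CPM, 0.85) and Blm low in Co2 (61.0 against 65.4 to 66.0 CPM, 0.885). The mean over the 53 genes was also far from the others in 1 of the 4 libraries of AB (0.863). Exo1 lies on chromosome 1 and Mcm2 on chromosome 6, whose tested genes had median log2 differences of -0.51 in G7 and -0.60 in AB, and the part of this in the values was not tested.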

How the results depend on the processing

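Between states in control clones, 6 genes rose and 3 fell. These counts became 17 and 11 with libraries as samples (31.8% and 30% of all genes, in place of 8.98% and 9.46%), 15 and 10 with a replicate block on library number (31.1% and 29.6%), 0 and 0 with a log2 fold change of at least 1 asked for as well (3.67% and 2.55%), and the 3 that fell became 1 without the filter on low counts (5.73%) and 1 in a fit of only the groups compared (7.33%). In mutant clones, 4 rose and 3 fell. These became 11 and 13 with libraries as samples (31.4% and 29%, in place of 5.32% and 7.53%), 10 and 12 with the replicate block (30.7% and 28.7%), 0 and 0 with the fold limit (3.36% and 3.19%), and the 3 that fell became 5 with DESeq2 (11.6%) and 1 without the filter (4.28%). Leaving out each clone or library number in turn gave 4 to 8 higher and 1 to 4 lower genes in control clones. In mutant clones no such fit gave more than 4 higher or 3 lower, and leaving out a non-ciliated mutant clone left a single clone in that group. Shares of all genes are not given for these fits, so the ranges are not set beside the background. For mutants against controls, libraries as samples gave 1 higher and 2 lower gene in ciliated cells (3.34% and 3.23% of all genes; 1 and 2, beside 2.65% and 2.54%, with the replicate block) and 4 higher in non-ciliated cells (4.74%; 3, beside 4.07%, with the block), in place of 0. For single mutant clones they gave 7 and 11 (non-ciliated Wdr34 and Wdr60) and 2, 9 and 13 (Wdr34-1, Wdr34-3 and ciliated Wdr60), and leaving out each control clone gave 0 to 0. All other settings run left these counts within 1.5 times. Libraries of a clone are not independent, so the larger counts come from more samples per clone. E2f1, Cdt1, Chaf1b, Lig1 and Rrm1 passed in control clones under every setting run except the fold limit, whereas calls on Mcm6, Rpa2, Rrm2 and Tk1 did not. Sign was followed under every setting only for the genes named for their change, call or p, not for all 53. Among those followed, 6 with values near 0 changed sign in control clones. Pola2 (0.0002) was at -0.0087 with at least 10 counts in every clone, -0.0091 with libraries as samples, -0.0094 with the replicate block, -0.0176 with voomLmFit, -0.0101 with only the groups compared, -0.0134 after subtracting chromosome medians, -0.0096 with limma and -0.115 with Co2 and G7 both left out (chosen after the data were seen), and -0.1198 to 0.0482 when clones or library numbers were left out. Subtraction also turned Orc1 (-0.0276), Cdc45 (0.0041) and Blm (-0.0241), and Blm was at -0.0386 without Co2 and G7. Genes that were not followed turned as well, among them Prim2, from -0.0096 to 0.0437 on subtraction (limma). Without Co2 and G7, Pold2 (-0.0776), Rpa1 (-0.0312) and Rfc3 (-0.0159) were below 0, against 0.0772, 0.0179 and 0.0214 with all clones (edgeR in both). Leaving out clones or library numbers gave -0.0683 to 0.0831 for Orc1, -0.214 to 0.0869 for Cdc45, -0.0189 to 0.0682 for Blm, -0.0786 to 0.0914 for Rfc4 and -0.0235 to 0.2038 for Chaf1a. The cause was not tested. RLE scaling moved the median of all genes from 0.02 to 0.04 in control clones. At these depths all 53 genes had enough counts that differences between clones, not counting, set the error.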

Other observations

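Clones of the 2 states, which the labels do not pair except for the name Wdr60, were compared by how each of the 53 genes deviated in log2 CPM from the mean of its state. Over these 53 genes the ciliated and non-ciliated Wdr60 clones had a Pearson correlation of 0.753, beside 0.607 over all 13994 genes. For unedited clones it was 0.574 between G7 and Co2 (0.76 over all genes), 0.542 between H12 and AB (0.412), 0.375 between A4 and Co1 (0.343) and 0.355 between D8 and Co3 (0.639). Over all genes each of these 4 pairs had the highest value of both its clones. Wdr34-1 and non-ciliated Wdr34 were at 0.349 (0.463 over all genes), whereas AB and the ciliated Wdr60 clone were at 0.544 over the 53 genes and 0.112 over all. No pairs were formed from these values. These values are descriptions over genes, which are not independent replicates, and genes of 1 chromosome move together in several of these clones, as given above for chromosomes 1 and 6.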
